A study of Homo sapiens with 15 samples.

Results

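CXCL12 (gene ID 6387), CXCR4 (gene ID 7852) and ACKR3 (gene ID 57007) are one chemokine ligand and its 2 receptors, and these 3 genes were selected by symbol from the 17138 genes that the expression tables of lung fibroblasts and small cell lung cancer (SCLC) cells list. All 3 were listed for the fibroblasts. CXCR4 and ACKR3 were listed for the SCLC cells, and CXCL12 in SCLC cells was not analysed here. The genes were chosen from a set of results in which the ligand and the receptors had already been seen to move, so their levels and fold changes are given as a description, without p-values.

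MRC5 is a human fetal lung fibroblast line, H196 a non-neuroendocrine SCLC line and H69 a neuroendocrine SCLC line. RNA was sequenced from MRC5 cells cultured separately (MRC5_Mo), MRC5 cells co-cultured with H69 (MRC5_CoH69) or with H196 (MRC5_CoH196), H196 cells cultured separately (H196_Mo) and H196 cells co-cultured with MRC5 (H196_Co), with 3 libraries in each group and 15 in all. The partner line grew on a membrane insert above the sequenced cells. No agent or genetic change was applied in these groups, each cell type is 1 line, and the labels do not say whether the replicates came from separate cultures, so the spread between them may be technical. The libraries held 18476890 to 19170560 counts for MRC5 and 16073597 to 17358349 for H196, so that 3 counts, the most that a library with a count of 0 allows, stood for 0.156 to 0.162 CPM (counts scaled to the library total) in MRC5 and 0.173 to 0.187 CPM in H196. These limits and all intervals below cover counting error only. Fibroblast markers separated the lines, since the 9 listed genes summed to 12887 CPM or more in every MRC5 library, and the 8 of them in the H196 table to at most 3.15 CPM in every H196 library, where COL1A2, COL3A1, LUM, PDGFRA and FAP had at most 3 counts.

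CXCL12 is a chemokine that fibroblasts and other stromal cells secrete. It binds CXCR4, a receptor coupled to inhibitory G proteins that drives directed migration, and ACKR3, an atypical receptor that recruits arrestins and removes the ligand from the surroundings of the cell. In SCLC, CXCR4 on tumour cells is known for mediating adhesion to stromal cells that secrete CXCL12.

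In the authors' tables (GRCh38.p13), CXCL12 lies at chr10:44261271-44386493, CXCR4 at chr2:136114349-136118149 and ACKR3 at chr2:236537123-236582358. The promoters of the ligand and of CXCR4 are shown because the RNA of both was higher in fibroblasts co-cultured with H196 cells. RefSeq (GRCh38.p14) gives 1 start site for CXCL12 and 3 for CXCR4 among the promoters at hand. The 250 bases before the CXCL12 start (chr10:44385098-44385347, minus strand) and before the CXCR4 start that matches the end of the gene in the authors' tables (chr2:136118150-136118399, minus strand) read as follows, 5′ to 3′, with capitals for every match to the motifs named after them.
CXCL12: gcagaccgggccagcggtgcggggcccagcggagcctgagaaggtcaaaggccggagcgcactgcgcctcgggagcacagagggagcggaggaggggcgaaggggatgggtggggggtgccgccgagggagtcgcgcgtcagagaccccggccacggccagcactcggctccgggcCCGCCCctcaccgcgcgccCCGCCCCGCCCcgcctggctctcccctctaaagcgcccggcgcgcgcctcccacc
CXCR4: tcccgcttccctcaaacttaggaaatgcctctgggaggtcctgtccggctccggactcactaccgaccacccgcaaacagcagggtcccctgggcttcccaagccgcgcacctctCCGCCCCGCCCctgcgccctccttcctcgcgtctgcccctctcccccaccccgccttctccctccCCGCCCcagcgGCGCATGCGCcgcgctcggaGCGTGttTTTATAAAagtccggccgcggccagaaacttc
The motifs searched on both strands, overlaps included, were the core of hypoxia response elements (ACGTG or GCGTG), the core of the NRF1 site (GCATGCGC), a TATA box (TATAAA) and a GC box (GGGCGG). The CXCR4 window held 1 hypoxia core from -39 to -35, 2 overlapping NRF1 cores from -59 to -50, 2 overlapping TATA boxes from -32 to -25 and 3 GC boxes. The CXCL12 window held 3 GC boxes, and none of the letters of the other 3 motifs were found in it. Among 35116 windows of the same length, 43.2% held a hypoxia core, 2.63% an NRF1 core, 10.7% a TATA box and 42.6% a GC box. These matches describe letters, and no binding was measured.

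The level of the ligand lay on opposite sides of that of the separate culture with the 2 tumour partners. In FPKM, fragments per kilobase of gene scaled to the depth of the library, CXCL12 was 23.95, 29.08 and 31.41 in MRC5_Mo, 18.74, 18.42 and 18.52 in MRC5_CoH69, and 39.90, 40.69 and 38.30 in MRC5_CoH196. The 3 groups did not overlap: every library with H196 lay above every library of the separate culture, and every library with H69 lay below it. The group means were 28.1 ± 3.82, 18.6 ± 0.164 and 39.6 ± 1.22 FPKM (SD, n = 3), and the separate culture varied more than either co-culture. By mean FPKM, CXCL12 was number 2804 of the 16382 genes listed for MRC5 in MRC5_Mo, number 3936 in MRC5_CoH69 and number 1837 in MRC5_CoH196.

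The fitted log2 fold change of CXCL12 was 0.67 (SE 0.064) in MRC5_CoH196 against MRC5_Mo, which is 1.59-fold. It was -0.61 (SE 0.069) in MRC5_CoH69 against MRC5_Mo, where the level was 0.657 of that of the separate culture. Between the 2 co-cultures it was 1.28 (SE 0.067), a 2.43-fold higher level with H196 than with H69. Against the same separate culture, 17.2% of the 12819 genes tested were called higher with H196 and 14.7% lower, while 0.421% were called higher with H69 and 0.133% lower. Between the co-cultures, 15.2% were called higher with H196 and 13.1% lower. A gene was called where the Benjamini-Hochberg adjusted p of edgeR's quasi-likelihood test was under 0.05 and the absolute log2 fold change above 0.58. Groups that do not overlap were common in the comparisons with H196, at 77.1% of genes against MRC5_Mo and 75.4% against MRC5_CoH69, and were found for 26.2% of genes in MRC5_CoH69 against MRC5_Mo.

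The log2 fold changes of CXCL12 with H196 and with H69 both lay near the limit on size. Without replicate 1 of MRC5_Mo, the lowest of that group, the change with H196 was 0.57, under the limit, while that with H69 was -0.71. Without replicate 3 of MRC5_Mo they were 0.76 and -0.53, the latter under the limit. On the log2(FPKM + 1) scale, which has no correction for composition, the change with H196 was 0.49 and the median of all genes lay at -0.16. The change with H69 was -0.57 on that scale, under the limit, with the median at -0.011. In the same libraries the 9 fibroblast markers summed to 26949 to 30000 CPM in MRC5_Mo, 30874 to 31883 in MRC5_CoH69 and 12887 to 13643 in MRC5_CoH196, and none of the 9 was at or under 3 counts. The lower sum lay in the collagens, with COL1A1 at 2628 ± 105.5 FPKM in MRC5_Mo and 785.0 ± 39.6 in MRC5_CoH196, and COL1A2 and COL3A1 lower as well. PDGFRB was at 60.7 ± 2.50 and 85.5 ± 2.93 FPKM, and DCN at 201.7 ± 17.7 and 198.1 ± 6.74. The sum over 160 marker genes of MRC5 (at least 20 CPM in all MRC5_Mo and under 0.5 CPM in all H196_Mo libraries) averaged 37621 CPM in MRC5_Mo and 36388 in MRC5_CoH196. The part of the markers in the level of CXCL12 was not tested. As for any bulk library, a change in the number of cells of a type and a change in RNA per cell cannot be told apart.

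**Figure D1:**
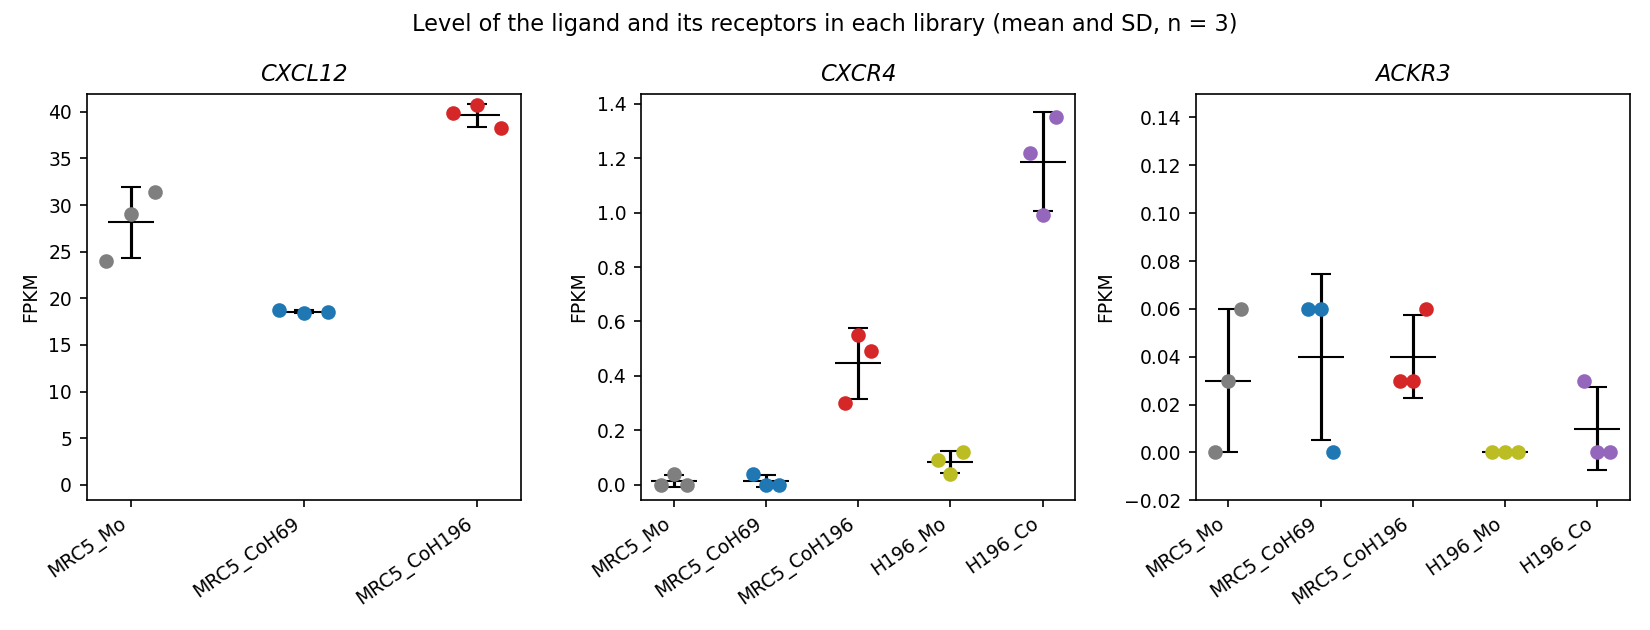
FPKM of CXCL12, CXCR4 and ACKR3 in each library (points) with the mean and SD of each group (black, n = 3), each panel with its own linear axis. CXCL12 lay between 38.30 and 40.69 with H196 and between 18.42 and 18.74 with H69, CXCR4 was highest in H196_Co at 0.99 to 1.35, and ACKR3 did not pass 0.06 in any library.

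CXCR4 RNA appeared in both partners of the co-culture of H196 and MRC5. In H196 cells the libraries of H196_Mo held 2, 1 and 3 counts (0.09, 0.04 and 0.12 FPKM) and those of H196_Co held 29, 23 and 32 (1.22, 0.99 and 1.35 FPKM). All 3 co-culture libraries were above all 3 separate ones, none of which passed 3 counts. The means were 0.0833 ± 0.0404 and 1.19 ± 0.182 FPKM (SD, n = 3). Summed over the group, 84 counts stood against 6, a ratio of 13.9 in CPM (exact 95% interval of counting 6.14 to 39.1). The fitted log2 fold change was 3.79 (SE 0.41), in a comparison in which 3.26% of the 12806 genes tested were called higher, 0.601% lower, and 41.3% had groups that do not overlap. CXCR4 passed the filter on low counts through H196_Co alone, so its direction was partly set by the filter and the fit is a description. The level was low in both groups: by mean FPKM, CXCR4 was number 11393 of the 16076 genes listed in H196_Co, and number 13510 in H196_Mo.

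In the fibroblasts CXCR4 was at the limit of detection unless H196 was the partner. Its counts were 0, 1 and 0 in MRC5_Mo, 1, 0 and 0 in MRC5_CoH69, and 8, 14 and 13 in MRC5_CoH196, which is 0.30, 0.55 and 0.49 FPKM (0.447 ± 0.131, SD, n = 3). The 3 libraries with H196 were the ones above 3 counts, and the groups MRC5_Mo and MRC5_CoH69 overlapped. CXCR4 failed the filter on low counts in MRC5, so its change is a ratio of summed counts: 35 against 1 gave 34.6 (interval 5.82 to 1405) against MRC5_Mo and 34.8 (5.84 to 1412) against MRC5_CoH69. With 1 count in the lower group, the upper bounds say little.

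Beside CXCR4, marker genes of H196 cells were summed in the fibroblast libraries. Marker genes of H196 were the 99 that reached 20 CPM in all libraries of H196_Mo and stayed below 0.5 CPM in all of MRC5_Mo. Their sum was 9.49 to 10.4 CPM in MRC5_Mo, 8.66 to 10.7 in MRC5_CoH69, and 54.1, 62.4 and 23.9 in replicates 1, 2 and 3 of MRC5_CoH196. The last group's mean was 0.588% of that of H196_Co, and that of MRC5_Mo, without H196 as partner, was 0.124%. With stricter limits, 30 markers gave 0.323% for MRC5_CoH196 and 0.0102% for MRC5_Mo. CXCR4 was measured at 0.618 CPM in MRC5_CoH196, which is 37.5% of its level in H196_Co (1.65 CPM). The part of H196 RNA in the level of CXCR4 was not tested. Leukocytes widely express CXCR4, and their defining gene PTPRC had at most 1 count in any MRC5 library. Of 6 listed leukocyte genes 4 were in the MRC5 table, with PTPRC and ITGAM at most 3 counts, and their sum, mostly CD68, was 72.9 to 82.1 CPM in MRC5_Mo, 57.7 to 70.3 in MRC5_CoH69 and 106.6 to 115.5 in MRC5_CoH196. In H196 cells the 4 leukocyte genes of that table summed to 89.0 to 94.9 CPM in H196_Mo and 115.6 to 124.3 in H196_Co, and PTPRC was not analysed there. Of these 4, ITGAM had 131 to 143 counts in H196_Mo and 114 to 134 in H196_Co. The part of leukocytes, of CD68 or of ITGAM in the level of CXCR4 was not tested. In H196_Co the sum over 160 MRC5 markers had a median of 20.2 CPM and at most 21.1, against 15.6 to 16.1 in H196_Mo.

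**Figure D2:**
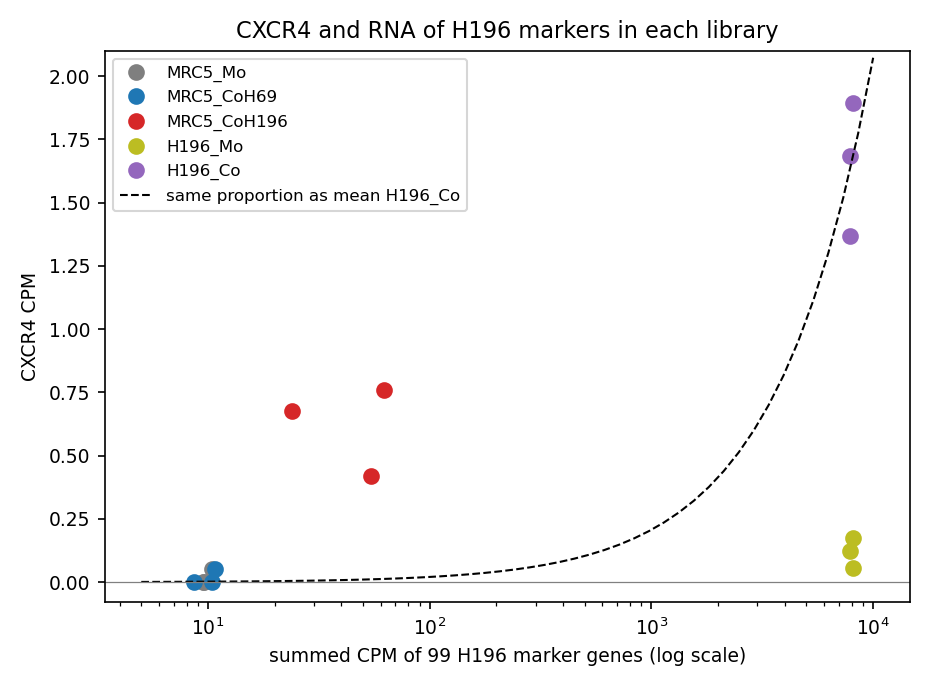
CXCR4 in CPM (linear axis) against the summed CPM of 99 marker genes of H196 cells (log axis), 1 point for each of the 15 libraries, with a dashed line where CXCR4 would lie if it were present in the same proportion to the markers as in the mean of H196_Co. The 3 libraries of MRC5_CoH196 lie above the line, at 0.418 to 0.758 CPM, while those of H196_Mo lie below it. The line makes no allowance for the marker signal of MRC5_Mo, and the part of H196 RNA in CXCR4 was not tested.

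ACKR3 was close to absent from every group at this depth. Its counts were 0, 1 and 2 in MRC5_Mo, 2, 2 and 0 in MRC5_CoH69, 1, 1 and 2 in MRC5_CoH196, 0, 0 and 0 in H196_Mo, and 1, 0 and 0 in H196_Co. No library passed 3 counts, all groups of a line overlapped, and a difference was not detectable at this depth, so no fold change is given. The mean was at most 0.04 FPKM in any group. Of the 3 genes, 1 of 3 passed the filter on low counts in MRC5 (CXCL12) and 1 of 2 in H196 (CXCR4).

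Set in order of mean FPKM, CXCR4 stood at 1.19 in H196_Co, 0.447 in MRC5_CoH196, 0.0833 in H196_Mo and 0.0133 in both MRC5_Mo and MRC5_CoH69. H196_Co, MRC5_CoH196 and H196_Mo did not overlap with each other, while H196_Mo overlapped with the 2 lowest groups at the value 0.04. The 2 cell lines come from tables that were normalized separately, so this order across lines is a description. The other chemokine receptors were low as well. Of 21 listed, 12 were in the MRC5 table and 7 in the H196 table, and in each line only CCR10, a receptor of CCL27 and CCL28, passed the filter. CCR10 was the highest of the 21 in every group, at 1.86 ± 0.341 FPKM in MRC5_CoH196 and 0.943 ± 0.124 in H196_Co. By mean FPKM, CXCR4 was above all 7 of the H196 table in H196_Co, and was second to CCR10 in MRC5_CoH196. In H196_Co the libraries of the 2 genes overlapped, with CXCR4 at 0.99 to 1.35 FPKM and CCR10 at 0.80 to 1.02.

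To place the axis among its partners, and with earlier results of these data known, 134 genes were listed by role around the 3 members. In MRC5, 101 of them were tested, and 17 were called higher and 9 lower in MRC5_CoH196 against MRC5_Mo, beside 17.2% and 14.7% of all genes tested. The median log2 fold change over the tested genes of the lists was 0.17, against -0.0030 over all genes. On the log2(FPKM + 1) scale 6 were called higher and 10 lower, and 923 and 2087 of all genes, so that the balance of the directions depends on the scaling. In MRC5_CoH196 against MRC5_CoH69 15 were called higher and 7 lower (10 and 10 on the log2(FPKM + 1) scale), beside 15.2% and 13.1% of all genes. These comparisons share libraries, MRC5_CoH196 in one case and MRC5_Mo in the other. In MRC5_CoH69 against MRC5_Mo edgeR called 0 higher and 1 lower, beside 0.421% and 0.133% of all genes. There 11 were higher and 7 lower at an unadjusted edgeR p under 0.05, a count without the share of all genes beside it. The DESeq2 Wald test also called 0 and 1, beside 30 and 7 of all 16382 genes. In H196_Co against H196_Mo 96 were tested, with 7 called higher and 0 lower by edgeR, beside 3.26% and 0.601% of all genes. At an unadjusted edgeR p under 0.05 these were 28 and 8, again without the share of all genes, so the unadjusted counts are a description. The DESeq2 Wald test called 5 and 0, beside 296 and 55 of all 16076 genes.

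ADM and MIF, other ligands of the 2 receptors, were more abundant per length than CXCL12 in every MRC5 group. ADM, the peptide adrenomedullin that ACKR3 also takes up, was 105.17, 111.56 and 113.66 FPKM in MRC5_Mo and 423.27, 481.43 and 487.50 in MRC5_CoH196, in ascending order. It rose by 2.25 on the log2 scale (SE 0.056, edgeR adjusted p = 3.11e-21). In H196 cells ADM rose as well, from 23.9 ± 0.317 to 80.5 ± 9.23 FPKM (log2 fold change 1.83, SE 0.087, edgeR adjusted p = 5.77e-12). With H69 it was 107.4 ± 5.68 FPKM in the fibroblasts, which overlapped with the separate culture (log2 fold change -0.03, edgeR adjusted p = 0.822).

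MIF, a cytokine that binds CXCR4 and CD74, was among the most abundant of the listed genes in both lines. It rose in MRC5_CoH196 from 914.5 ± 26.0 to 1336 ± 31.0 FPKM (log2 fold change 0.71, SE 0.043, edgeR adjusted p = 1.65e-13), though on the log2(FPKM + 1) scale the change was 0.55, under the limit. In H196_Co it was 2076 ± 273.6 FPKM against 1479 ± 109.8 in H196_Mo. This log2 fold change of 0.58 (SE 0.094, edgeR adjusted p = 0.000212) lay just under the limit before rounding. CD74, the other receptor of MIF, had at most 39 counts in any MRC5 library, with a log2 fold change of 0.43 (SE 0.26, edgeR adjusted p = 0.148), and at most 1 count in H196 cells. HMGB1, a nuclear protein that forms a complex with CXCL12 when released, fell by 0.70 on the log2 scale in MRC5_CoH196 (SE 0.043, edgeR adjusted p = 1.53e-13), from 100.9 ± 2.09 to 53.9 ± 2.46 FPKM. CXCL11 and CXCL14, chemokines that bind ACKR3 and modulate CXCR4 respectively, had at most 5 counts in any MRC5 library and did not pass the filter.

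Of the proteases that trim CXCL12, 1 of 6 was called higher in MRC5_CoH196 (16.7%), and of the surface molecules that hold it or act beside its receptors 2 of 7 (28.6%), beside 17.2% of all genes tested. DPP4, which removes the first residues of CXCL12 and inactivates it, was 29.2 ± 3.11 FPKM in MRC5_Mo, 35.4 ± 3.17 with H69 and 23.8 ± 2.39 with H196, and did not pass both limits in any comparison. MMP3, a matrix metalloprotease, rose in MRC5_CoH196 from 1.38 ± 0.354 to 2.44 ± 0.149 FPKM (1.99-fold, edgeR adjusted p = 3.41e-05), the 1 call among the 6 proteases tested. In H196_Co the 1 call of 6 was MMP14, a membrane-bound metalloprotease, at 55.1 ± 3.52 against 36.0 ± 1.29 FPKM (log2 fold change 0.69, SE 0.071, edgeR adjusted p = 7.28e-07). SDC4, a heparan sulfate proteoglycan that binds CXCL12, was 128.5 ± 4.90 FPKM in MRC5_Mo and 137.1 ± 4.27 in MRC5_CoH196 and was not called. Among the 7 co-receptors and surface partners tested in MRC5, the tetraspanin CD9 (log2 fold change 0.63, SE 0.048) and the integrin subunit ITGB1 (0.59, SE 0.042) rose, both close to the limit. CCR10, named above, rose in MRC5_CoH196 by 1.02 (SE 0.21, edgeR adjusted p = 0.000116).

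Of 18 G proteins and RGS proteins tested in MRC5_CoH196 against MRC5_Mo, 3 were called higher (16.7%) and 4 lower (22.2%), near the 17.2% and 14.7% of all genes tested. RGS proteins end the signal of a G protein by speeding the hydrolysis of its GTP. RGS4 had 12.46, 13.52 and 14.27 FPKM in MRC5_Mo and 2.95, 2.98 and 3.15 in MRC5_CoH196, and fell by 1.96 on the log2 scale (SE 0.086, edgeR adjusted p = 3.12e-16). With H69 as the partner it was 7.69, 9.13 and 9.52 FPKM, between the other 2 groups and without overlap (log2 fold change -0.60, SE 0.072, edgeR adjusted p = 4.37e-06), the 1 listed gene called in that comparison. This call was lost on the log2(FPKM + 1) scale (-0.56) and without replicate 3 of MRC5_Mo (-0.55) or of MRC5_CoH69 (-0.51), each under the limit on size. RGS5 fell by 1.05 with H196 (SE 0.10), while RGS14 rose by 1.39 (SE 0.22) from a level of 0.553 ± 0.0764 FPKM. GNAI1, an inhibitory α subunit, rose by 0.76 (SE 0.062), and the more abundant GNAI2 was at 324.7 ± 20.9 and 294.2 ± 21.1 FPKM (log2 fold change 0.03, SE 0.055). The 7 calls in H196 cells lay elsewhere, with 1 ligand, 1 protease and 5 regulators of transcription.

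Receptor kinases, arrestins and degradation gave 1 call among 19 genes in MRC5_CoH196 against MRC5_Mo. This was a share of 5.26% called lower, beside 14.7% of all genes tested, and none was called higher, beside 17.2%. The call was GRK6, a kinase that phosphorylates activated receptors, which fell by 0.63 on the log2 scale (SE 0.065, edgeR adjusted p = 3.72e-09). Without replicate 3 of MRC5_Mo its change was -0.56 and without replicate 2 of MRC5_CoH196 it was -0.57, both under the limit. GRK5 (log2 fold change 0.13, SE 0.055) and the arrestin ARRB2 (0.03, SE 0.11) were not called. Downstream signalling gave 2 calls of 26, a share of 3.85% in each direction, below the 17.2% higher and 14.7% lower of all genes tested. PXN, the focal adhesion adaptor paxillin, rose by 0.80 (SE 0.046) to 149.8 ± 3.86 FPKM, and CFL1, the actin-severing protein cofilin, fell by 0.62 (SE 0.044) from 1318 ± 23.8 to 764.5 ± 41.5 FPKM, a change that was -0.57, under the limit, without replicate 3 of MRC5_CoH196.

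The regulators of transcription were listed for their known links to the axis, with earlier results of these data known. They gave the most calls in number in both lines, while the 4 ligands tested in MRC5 had a larger share, with 2 called higher and 1 lower. Of 20 regulators tested in MRC5, 7 were called higher and 2 lower in MRC5_CoH196 against MRC5_Mo. These shares of 35% and 10%, beside 17.2% and 14.7% of all genes tested, are a description. ETS1, a transcription factor of migrating and invading cells, rose from 24.6 ± 0.635 to 63.2 ± 3.66 FPKM (log2 fold change 1.53, SE 0.049, edgeR adjusted p = 3.46e-19). CEBPB, a factor of inflammatory gene expression, rose by 1.25 (SE 0.052), and RUNX1 by 1.23 (SE 0.051). NFKB1, a subunit of NF-κB, fell from 12.5 ± 0.229 to 5.03 ± 0.403 FPKM (log2 fold change -1.16, SE 0.060, edgeR adjusted p = 7.36e-15). RELA, another subunit of NF-κB on the list, went the other way, from 41.1 ± 0.829 to 59.5 ± 1.85 FPKM.

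Of 19 regulators tested in H196 cells, 5 were called higher in H196_Co, a share of 26.3% beside 3.26% of all genes tested. The list was drawn up with earlier results of these data known, so this share is a description as well. SNAI1, a repressor of epithelial genes, rose by 1.44 on the log2 scale (SE 0.19, edgeR adjusted p = 2.40e-05), from 0.940 ± 0.0656 to 2.43 ± 0.136 FPKM. KLF2, a factor of quiescence, rose by 1.03 (SE 0.10), EGR1, an immediate early factor, by 0.95 (SE 0.11) and CEBPB by 0.59 (SE 0.11). The call of CEBPB, close to the limit on size, was lost in edgeR with DESeq2 size factors and with the DESeq2 Wald test. It was also lost on the log2(FPKM + 1) and log2(FPKM + 0.1) scales. EPAS1, which encodes HIF-2α, rose by 0.97 (SE 0.26, edgeR adjusted p = 0.0134) at 0.393 ± 0.118 FPKM. That call was kept in edgeR with DESeq2 size factors (edgeR adjusted p = 0.0144). It was lost with the DESeq2 Wald test (adjusted p = 0.0716) and without replicate 2 of H196_Co (edgeR adjusted p = 0.0888). HIF1A, a regulator of CXCR4 and CXCL12 under low oxygen, was 102.5 ± 4.61 FPKM in MRC5_CoH196 against 88.0 ± 2.05 in MRC5_Mo (log2 fold change 0.39, SE 0.042, edgeR adjusted p = 5.93e-09) and 28.3 ± 2.29 in H196_Co against 38.7 ± 1.69 in H196_Mo (log2 fold change -0.38, SE 0.071, edgeR adjusted p = 0.000912). Neither value passed the limit on size.

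**Figure D3:**
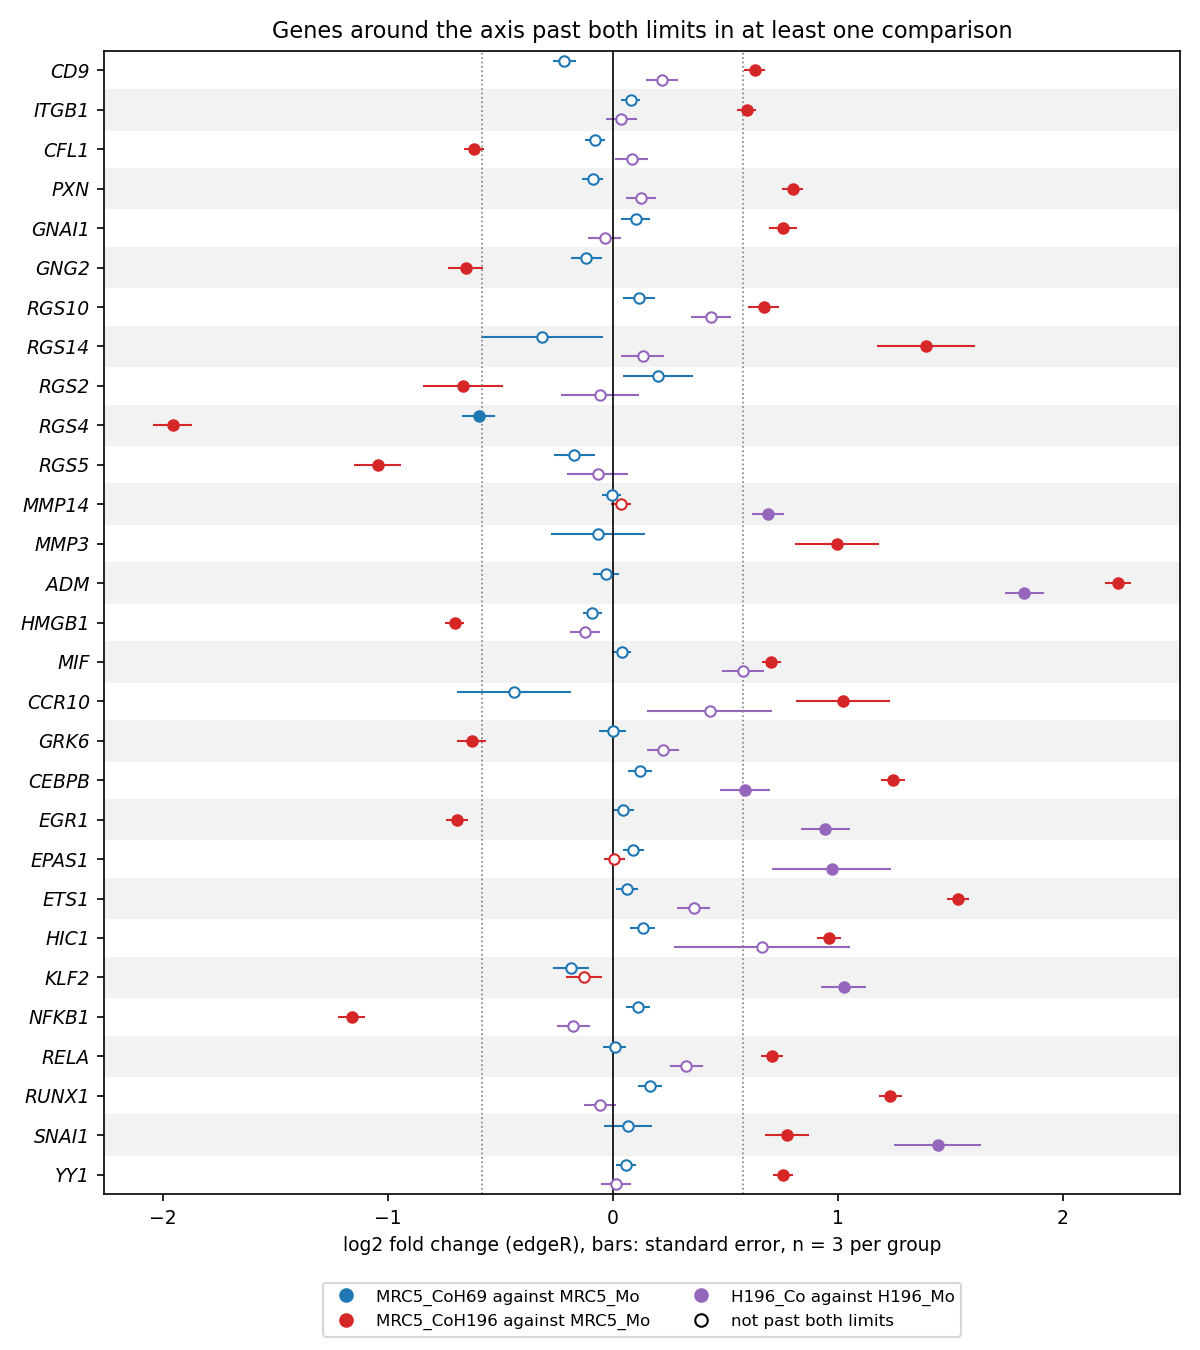
log2 fold changes with their standard errors (n = 3 per group) of the listed genes that passed both limits in at least 1 of 3 comparisons, grouped by role, with filled points for changes past both limits and dotted lines at the limit of 0.58. The red points of MRC5_CoH196 spread from -1.96 (RGS4) to 2.25 (ADM), the blue points of MRC5_CoH69 are open apart from that of RGS4 and reach down to -0.44 for CCR10 among the open ones, and the filled purple points of H196_Co all lie to the right of 0.

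**Figure D4:**
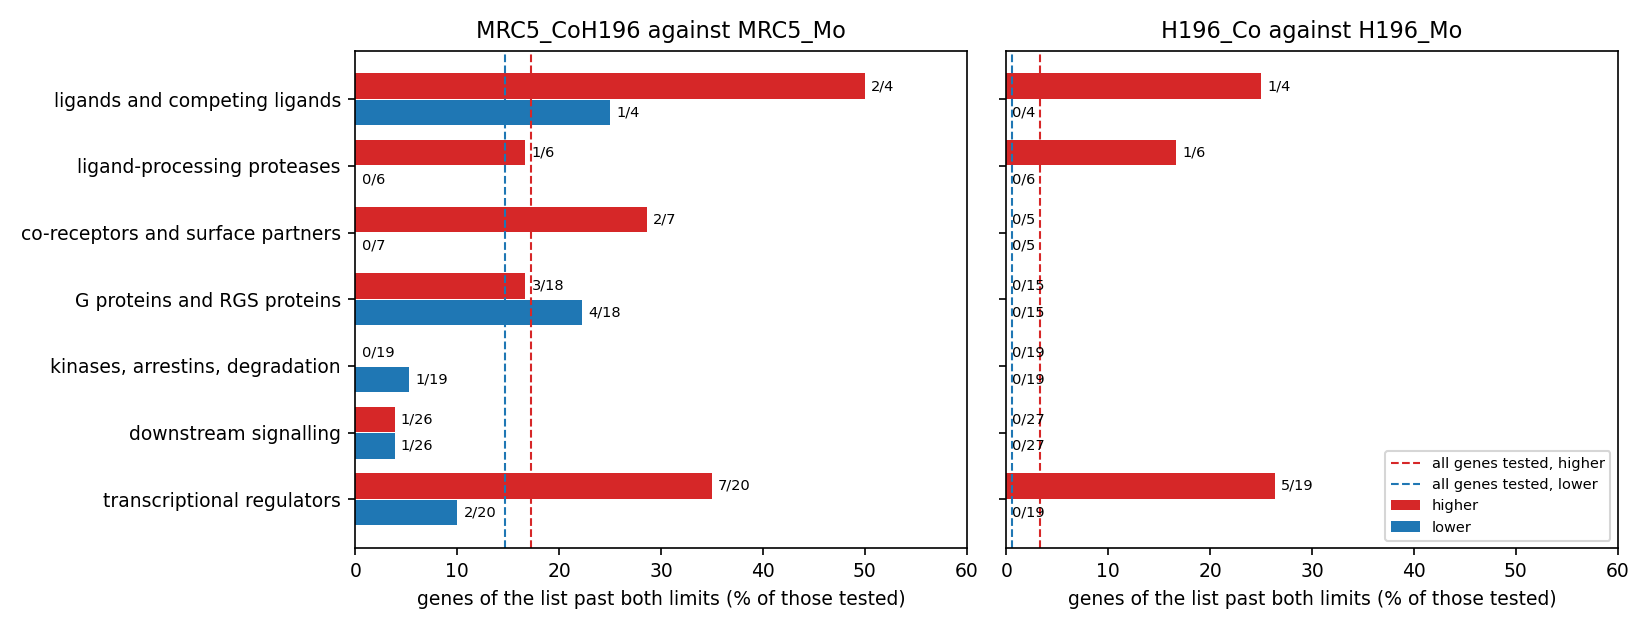
Share of the tested genes of each list that passed both limits, higher (red) or lower (blue), in fibroblasts (left) and H196 cells (right), with the counts at the bars and the shares of all genes tested as dashed lines. Transcriptional regulators stand at 7 of 20 higher in MRC5_CoH196 and 5 of 19 in H196_Co, while downstream signalling gave 1 of 26 in each direction in the fibroblasts.

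By likeness of pattern, the gene closest to CXCL12 over the 9 MRC5 libraries was KCNQ5, a potassium channel gene (Pearson r of log2 CPM 0.993), at 1.75, 1.09 and 2.88 FPKM in MRC5_Mo, MRC5_CoH69 and MRC5_CoH196. AHNAK2, NT5E, PAICS and ITGA6 followed, the last with r of 0.984, and 61 of 12818 genes had an r above 0.95. PAICS did not rise with H196 in mean FPKM, at 51.0 in MRC5_Mo and 50.6 in MRC5_CoH196. For CXCR4 in MRC5 the 5 closest were PPP1R12A, KLHDC10, BTBD3, MIEF2 and USP53, out of 1324 genes above 0.95, so that many genes that separate the co-culture with H196 share this pattern. CXCR4 failed the filter there and had at most 1 count in any library of MRC5_Mo or MRC5_CoH69. For CXCR4 over the 6 H196 libraries they were TLE1, SLCO4A1, DPYSL4, HS3ST3A1 and ASNS, the asparagine synthetase, which went from 73.1 to 123.1 FPKM. These correlations are descriptions across libraries that fall into groups, and no likeness was computed for ACKR3, whose counts were too low.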

How the data were processed

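The 3 genes, the lists of related genes and the tests were chosen with earlier results of these data known. RNA captured with oligo(dT) was sequenced by the authors, who aligned reads to GRCh38.p13. The submitters' processing notes name HISAT2 2.1.0, Bowtie2 2.3.4.3 and RSEM 1.3.1. Expected counts, as deposited, estimate the reads of each gene without normalization, and 93.7% (MRC5) and 92.1% (H196) of them were whole. The deposited FPKM values were normalized by the authors per library. Further columns of TPM and normalized counts (18 in MRC5, 12 in H196) and the authors' own fold changes, p-values and q-values between groups were not used.

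Expected counts were rounded, filtered with filterByExpr and scaled with TMM in edgeR 4.0.16 (R 4.3.3). Quasi-likelihood models were fitted to all 9 MRC5 libraries and to the 6 H196 libraries, with two-sided tests and Benjamini-Hochberg adjustment over all genes tested. The SE was obtained from the log2 fold change and the F statistic. CPM values without a fit used library totals. Ratios of summed counts have exact 95% intervals. From the lists, every called gene was named where a list had at most 4 and otherwise the 4 with the largest change, plus MIF, CXCL11, CXCL14, DPP4, ADM, CD74, SDC4, HIF1A, EPAS1, ARRB2, GNAI2 and GRK5, and EGR1 in MRC5 for its opposite movement, while the plot of fold changes shows every called gene. Likeness was Pearson r of log2 CPM with a prior count of 2. Alternatives were edgeR with the size factors of DESeq2 1.42.0, the DESeq2 Wald test, and limma 3.58.1 on log2(FPKM + 1) and log2(FPKM + 0.1). Further ones were no filter, fold limits of 1 and 0, only the groups compared, a replicate block, stricter markers of the partner line, and each library left out. The count tests were tested on simulated data. No pair of replicates agreed within sampling noise.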

Additional observations from a re-analysis of the deposited data

Results flagged for a closer look

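CXCL12 drew attention because it moved in opposite directions in the same fibroblasts with the 2 tumour partners, every library with H196 above and every library with H69 below the separate culture. Against that culture, groups did not overlap for 77.1% of all genes tested with H196 and for 26.2% with H69. The log2 fold changes were 0.67 and -0.61, a difference of 1.28. Both share the libraries of MRC5_Mo, the gene was chosen for this pattern, and the difference was not tested.

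EGR1 fell in MRC5_CoH196 (log2 fold change -0.69) and rose in H196_Co (0.95), with no overlap between groups in either line, a difference of -1.64. Groups that do not overlap were found for 77.1% of all genes tested in MRC5_CoH196 against MRC5_Mo and 41.3% in H196_Co against H196_Mo. The 2 lines were fitted apart and the difference was not tested.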

How the results depend on the processing

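For CXCL12 in MRC5_CoH196 against MRC5_Mo, log2(FPKM + 1) gave 0.49 and log2(FPKM + 0.1) gave 0.50, and against MRC5_CoH69 they gave 1.05 and 1.09. In MRC5_CoH69 against MRC5_Mo they gave -0.57 and -0.59. For CXCR4 in H196 cells they gave 1.01 and 2.83. On these scales the pseudocount is large beside the low level of CXCR4, and the cause of the other shifts was not tested. Of the listed genes, log2(FPKM + 1), with or without a filter, called 16 in MRC5_CoH196 against MRC5_Mo and 0 in MRC5_CoH69 against MRC5_Mo. On that scale 7 of the calls named in MRC5_CoH196 against MRC5_Mo (CCR10, CD9, GNAI1, ITGB1, MIF, MMP3 and RGS14) kept their direction and fell under the limit on size. A fold limit of 1 left 9, 0, 9 and 3 calls in MRC5_CoH196 against MRC5_Mo, MRC5_CoH69 against MRC5_Mo, MRC5_CoH196 against MRC5_CoH69 and H196_Co against H196_Mo, and no fold limit gave 76, 4, 74 and 23, against 26, 1, 22 and 7 as reported. The shares of all genes called at these other limits are not given, so the counts cannot be read as a result about the lists. With stricter limits (at least 50 and under 0.2 CPM), H196 markers summed to 16.3 CPM in MRC5_CoH196 and MRC5 markers to 3.61 CPM in H196_Co, in place of 46.8 and 20.1. Without a partner, the stricter sums were 0.516 CPM in MRC5_Mo and 2.56 in H196_Mo, in place of 9.83 and 15.9. The sums are therefore not RNA of the partner line alone. As shares of the source, the sums in the co-cultures were 0.323% and 0.0154% in place of 0.588% and 0.0553%, and the cause was not tested.

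When libraries were left out singly, the fold change of CXCL12 ranged from 0.57 to 0.76 with H196, from -0.71 to -0.53 with H69 and from 1.27 to 1.302 between the co-cultures, and that of CXCR4 in H196 cells from 3.47 to 4.17. The calls ranged from 24 to 27, 0 to 1, 22 to 24 and 6 to 8 in the order above, and the 0, with RGS4 no longer called, came without replicate 3 of MRC5_Mo or of MRC5_CoH69. The replicate block gave 26, 1, 22 and 7 calls, fold changes of 0.68, -0.60 and 1.28 for CXCL12 and 3.79 for CXCR4. The deviations of libraries with the same replicate number correlated between -0.12 and 0.08 in MRC5 and between -0.15 and 0.03 in H196. For libraries with different numbers the range was -0.11 to 0.17 in MRC5 and -0.14 to 0.20 in H196. As these ranges overlap, they cannot decide whether libraries with the same number share a culture or batch. Depth limits CXCR4 in MRC5 and ACKR3 in both lines, where a change of a few counts moves the value.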
